A study of Ovis aries with 22 samples.

Results

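The insulin-like growth factor (IGF) genes of the sheep arterial root were taken from the deposited tables by symbol: the ligands IGF1 and IGF2, the receptor IGF1R, and the binding proteins IGFBP2, IGFBP3, IGFBP4, IGFBP5, IGFBP6 and IGFBP7. All 9 of these genes were found among 26200 gene symbols, and all 9 passed the filter on low counts that left 14979 genes for testing. IGF1 and IGF2 are secreted peptides that act through the tyrosine kinase receptor IGF1R, which feeds the PI3K, AKT and MTOR cascade and the MAP kinase cascade. The binding proteins hold the ligands outside the cell, block or present them to the receptor, and are cut by proteases that release the ligand. In the arterial wall, smooth muscle cells and fibroblasts make several of these proteins, and IGF signalling is known there for effects on smooth muscle growth, migration and survival.

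RNA was sequenced from sinus wall of sheep (Ovis aries) in 3 groups. Autograft sinus came from 3 sheep, 6 months after the Ross procedure, in which the animal's own pulmonary root is moved to the aortic position. Native aortic sinus and native pulmonary sinus, 4 libraries each, came from the same 4 animals (D3 to D6), which the design text calls non-operated. Neither age nor strain is stated in the labels, and no sham-operated group was analysed here. Aortic replicate 1 (animal D3) carries the treatment label of the operated sheep while its tissue label is aortic sinus, and it was kept in the aortic group. Over all genes, the deviation of the aortic library labelled D4 from its group mean correlated at 0.40 with that of the pulmonary library labelled D3 and at -0.13 with that of D4, and the aortic library labelled D3 correlated at 0.26 with pulmonary D4 and at -0.18 with pulmonary D3. Whether the animal labels D3 and D4 were exchanged in 1 of the native tissues was not tested. Each library had been sequenced in 2 runs, which were added, and held 17380599 to 20741334 counts. The smooth muscle markers MYH11 and ACTA2 were abundant in all 11 libraries, at 5184 CPM or more and 7665 CPM or more. CPM here means each gene's counts scaled to a common library size after TMM, a correction for library composition.

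Against native pulmonary sinus, the tissue that the graft was made from, 2 of the 9 genes rose in the autograft and none fell by the threshold used (edgeR quasi-likelihood test, Benjamini-Hochberg adjusted p under 0.05 over all genes tested). The 2 genes were IGFBP2 and IGFBP4, and over all genes tested 11.3% were called in this comparison, 6.05% higher and 5.29% lower. Against native aortic sinus, the tissue of the same position, only IGFBP2 rose in this fit, where 2.38% of all genes were called, 0.948% higher and 1.43% lower. Between the native tissues no gene of the 9 was called. The median log2 fold change of the 9 genes was 0.645 for autograft minus pulmonary sinus and 0.387 for autograft minus aortic sinus, beside medians of 0.00127 and 0.00184 over all genes tested. The autograft comparisons share the autograft libraries, so they are not independent of each other.

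For 5 of the 9 genes the autograft and pulmonary libraries had ranges that stayed apart, against 22.1% of all genes tested (10.9% higher and 11.2% lower in autograft). IGF1, IGFBP2, IGFBP4 and IGFBP5 were higher in all 3 autograft libraries than in any pulmonary library, and IGF1R was lower. Between autograft and aortic sinus, IGF1, IGFBP2 and IGFBP4 were higher without overlap and IGF1R was lower, against 20.6% of all genes without overlap (9.77% higher and 10.8% lower in autograft). These are small groups, and a gene can separate fully without passing the adjusted threshold, as IGF1, IGF1R and IGFBP5 did.

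**Figure D1:**
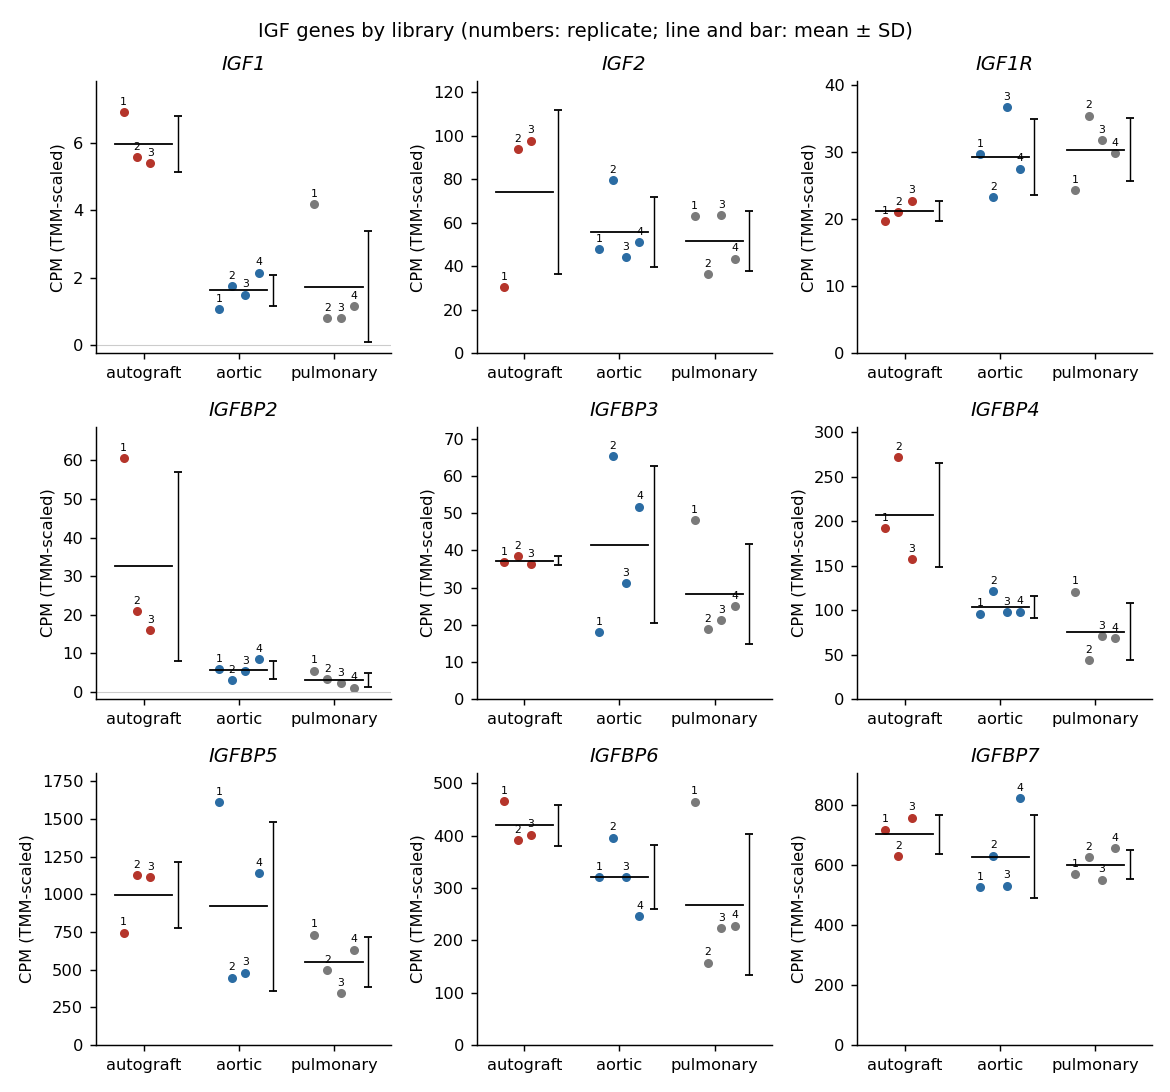
Expression of the 9 IGF genes in each library, 1 panel per gene, as CPM after TMM scaling on a linear axis; each point is a library with its replicate number, horizontal lines are group means, brackets are mean ± SD, and groups run from autograft to aortic to pulmonary sinus. IGFBP2 and IGFBP4 sit higher in all 3 autograft libraries than in any native library, and a single pulmonary library with 4.18 CPM stands apart for IGF1.

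IGF1, the growth hormone dependent ligand, had the lowest level per transcript length of the 9 genes, as described further on. It had 6.92, 5.59 and 5.40 CPM in autograft sinus, against 1.07, 1.75, 1.49 and 2.15 CPM in aortic sinus and 4.18, 0.799, 0.796 and 1.14 CPM in pulmonary sinus. Every autograft library was above every native library, and pulmonary replicate 1 was the native library closest to the autograft. These levels rest on 95 to 123 raw counts in autograft libraries and on 14 to 74 in native libraries. The log2 fold change of IGF1 was 1.79 ± 0.54 (SE) for autograft minus pulmonary sinus and missed the threshold (95% interval 0.60 to 2.97, edgeR adjusted p = 0.0549). It was 1.88 ± 0.54 for autograft minus aortic sinus (95% interval 0.69 to 3.07, edgeR adjusted p = 0.0849). Without pulmonary replicate 1, both values passed, with a log2 fold change of 2.68 (edgeR adjusted p = 0.00313) and of 1.88 (edgeR adjusted p = 0.0208). In each comparison this was the only pass among 11 fits that left out a library. The highest edgeR adjusted p of those fits was 0.132 against pulmonary sinus and 0.202 against aortic sinus. Leaving out pulmonary replicate 1 also raised the calls over all genes against pulmonary sinus, from 1699 to 2733. With the animal as a random block, both IGF1 values passed in limma, with a log2 fold change of 2.17 against pulmonary sinus (adjusted p = 0.0160) and of 1.91 against aortic sinus (adjusted p = 0.0418). That fit differs from the main fit in the test as well as in the block. Over all 25 alternatives IGF1 gained a call in 10 against pulmonary sinus and in 9 against aortic sinus.

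IGF2, the imprinted ligand that acts mainly in fetal growth, was more abundant than IGF1 and uneven among the autografts. It had 30.4, 93.7 and 97.7 CPM in autograft sinus, against 47.9, 79.5, 44.1 and 51.1 CPM in aortic sinus and 63.1, 36.3, 63.6 and 43.5 CPM in pulmonary sinus. Autograft replicate 1 was lower than all native libraries, while the other two autografts were higher than all of them. The difference was smaller than this spread, with a log2 fold change of 0.52 ± 0.36 against pulmonary sinus (95% interval -0.28 to 1.32, edgeR adjusted p = 0.363) and 0.41 ± 0.36 against aortic sinus (edgeR adjusted p = 0.532). In deposited FPKM of run 2, a level per transcript length, the ratio of IGF2 to IGF1 was 14.7 to 49.3 in autograft sinus, 54.6 to 93.3 in aortic sinus and 37.3 to 159 in pulmonary sinus. IGF2 exceeded IGF1 in all 11 libraries on that scale, and the ratio was lower in every autograft library than in any aortic library but overlapped the pulmonary range. In run 1 the ratio was 15.96 to 36.5 in autograft sinus, 58.6 to 116 in aortic sinus and 43.99 to 78.9 in pulmonary sinus, so there the autografts lay below both native tissues. The ratio rests on low IGF1 values, 0.152 to 1.05 FPKM in run 2. It could differ widely between runs of a library, as in pulmonary replicate 3 (78.9 in run 1 and 159 in run 2).

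IGF1R, the receptor for both ligands, was lower in every autograft library than in any native library. It had 19.7, 21.0 and 22.7 CPM in autograft sinus, against 29.6, 23.2, 36.7 and 27.5 CPM in aortic sinus and 24.2, 35.4, 31.8 and 29.8 CPM in pulmonary sinus. Aortic replicate 2 and pulmonary replicate 1 were the native libraries nearest to the autografts. The log2 fold change was -0.52 ± 0.17 against pulmonary sinus (95% interval -0.89 to -0.15, edgeR adjusted p = 0.0686) and -0.47 ± 0.17 against aortic sinus (95% interval -0.84 to -0.10, edgeR adjusted p = 0.139), both short of the threshold. Without pulmonary replicate 1 the value against pulmonary sinus was -0.63 and passed (edgeR adjusted p = 0.0278). That was the only pass among 11 fits that left out a library, where the edgeR adjusted p reached 0.167.

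IGFBP2, a binding protein with higher affinity for IGF2 that also carries an integrin binding motif, showed the largest fold change of the 9 genes. It had 60.6, 21.0 and 16.0 CPM in autograft sinus, against 5.99, 3.001, 5.34 and 8.43 CPM in aortic sinus and 5.54, 3.31, 2.34 and 1.14 CPM in pulmonary sinus. All autograft libraries were above all native libraries, and autograft replicate 1 stood above the other two. The mean was 32.6 ± 24.4 CPM in autograft sinus (SD, n = 3), 5.69 ± 2.23 CPM in aortic sinus and 3.08 ± 1.86 CPM in pulmonary sinus (SD, n = 4 each).

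IGFBP2 rose against pulmonary sinus by 3.40 ± 0.57 on the log2 scale (95% interval 2.14 to 4.66, edgeR adjusted p = 0.0103), and this call held in all 11 fits that left out a library. Without autograft replicate 1 the log2 fold change was 2.58 (edgeR adjusted p = 0.0200). Against aortic sinus IGFBP2 rose by 2.52 ± 0.55 on the log2 scale (95% interval 1.30 to 3.73, edgeR adjusted p = 0.0425). That call held in 3 of the 11 fits that left out a library. It was lost without autograft replicate 1 (log2 fold change 1.70, edgeR adjusted p = 0.109) and autograft replicate 2 (0.0879), without each of aortic replicates 1 to 4 (0.0962, 0.0809, 0.124 and 0.0721), and without pulmonary replicate 2 (0.0530) or 3 (0.0580). With the animal as a random block the limma adjusted p was 0.0503. Over all 26 alternatives the aortic call was lost in 17.

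IGFBP4, a binding protein known for blocking IGF action until the protease PAPPA cuts it, had 192, 272 and 157 CPM in autograft sinus, against 96.0, 121, 97.4 and 98.4 CPM in aortic sinus and 121, 43.6, 70.8 and 68.4 CPM in pulmonary sinus. The lowest autograft library was above the highest native library. IGFBP4 rose against pulmonary sinus by 1.45 ± 0.29 on the log2 scale (95% interval 0.82 to 2.08, edgeR adjusted p = 0.0155), 2.73-fold. The call held in 10 of 11 fits that left out a library and was lost without autograft replicate 2 (edgeR adjusted p = 0.0548) and in a fit of these 2 groups alone (edgeR adjusted p = 0.0547). Against aortic sinus the log2 fold change was 1.002 ± 0.29 (95% interval 0.37 to 1.63) and was not called (edgeR adjusted p = 0.0843). It passed in 1 of 11 fits that left out a library, the fit without pulmonary replicate 1 (edgeR adjusted p = 0.0354). The highest edgeR adjusted p of those fits was 0.206.

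The other binding proteins did not pass in either autograft comparison. IGFBP5, which binds extracellular matrix, had 746, 1129 and 1116 CPM in autograft sinus, against 1611, 446, 480 and 1141 CPM in aortic sinus and 732, 497, 345 and 632 CPM in pulmonary sinus. The autograft libraries were above all pulmonary libraries by a narrow margin, and the aortic libraries spread widely, with replicate 1 the highest of all libraries and replicates 2 and 3 below every autograft. Its log2 fold change was 0.85 ± 0.42 against pulmonary sinus (95% interval -0.08 to 1.78, edgeR adjusted p = 0.197) and 0.12 ± 0.43 against aortic sinus (edgeR adjusted p = 0.893).

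IGFBP6, which prefers IGF2 as its ligand, had 465, 391 and 402 CPM in autograft sinus, against 320.5, 396, 320.2 and 246 CPM in aortic sinus and 465, 157, 222 and 228 CPM in pulmonary sinus. Pulmonary replicate 1 reached the level of the highest autograft, while the other three pulmonary libraries were below all autografts. The log2 fold change was 0.65 ± 0.30 against pulmonary sinus (edgeR adjusted p = 0.174). Without pulmonary replicate 1 it was 1.03 and passed (edgeR adjusted p = 0.00887). That was the only pass among 11 fits that left out a library, where the edgeR adjusted p reached 0.341. Against aortic sinus it was 0.39 ± 0.30 (edgeR adjusted p = 0.474).

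IGFBP3, the main carrier of IGFs in serum, was nearly level among the autografts and uneven among the native libraries. It had 36.8, 38.5 and 36.3 CPM in autograft sinus, against 18.0, 65.3, 31.2 and 51.8 CPM in aortic sinus and 48.2, 18.8, 21.2 and 25.0 CPM in pulmonary sinus. The native libraries lay on both sides of the autografts. The log2 fold change was 0.40 ± 0.41 against pulmonary sinus (edgeR adjusted p = 0.545) and -0.16 ± 0.41 against aortic sinus (edgeR adjusted p = 0.849). Without pulmonary replicate 1 the value against pulmonary sinus was 0.76 and was still not called (edgeR adjusted p = 0.170).

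IGFBP7, a related protein with low affinity for IGFs that is made by endothelium and smooth muscle, had 717, 629 and 757 CPM in autograft sinus, against 526, 630.4, 530.3 and 823 CPM in aortic sinus and 570, 626, 550.3 and 656 CPM in pulmonary sinus. The groups overlapped, and aortic replicate 4 was the highest library. Its log2 fold change was 0.22 ± 0.16 against pulmonary sinus (edgeR adjusted p = 0.379) and 0.16 ± 0.16 against aortic sinus (edgeR adjusted p = 0.589).

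**Figure D2:**
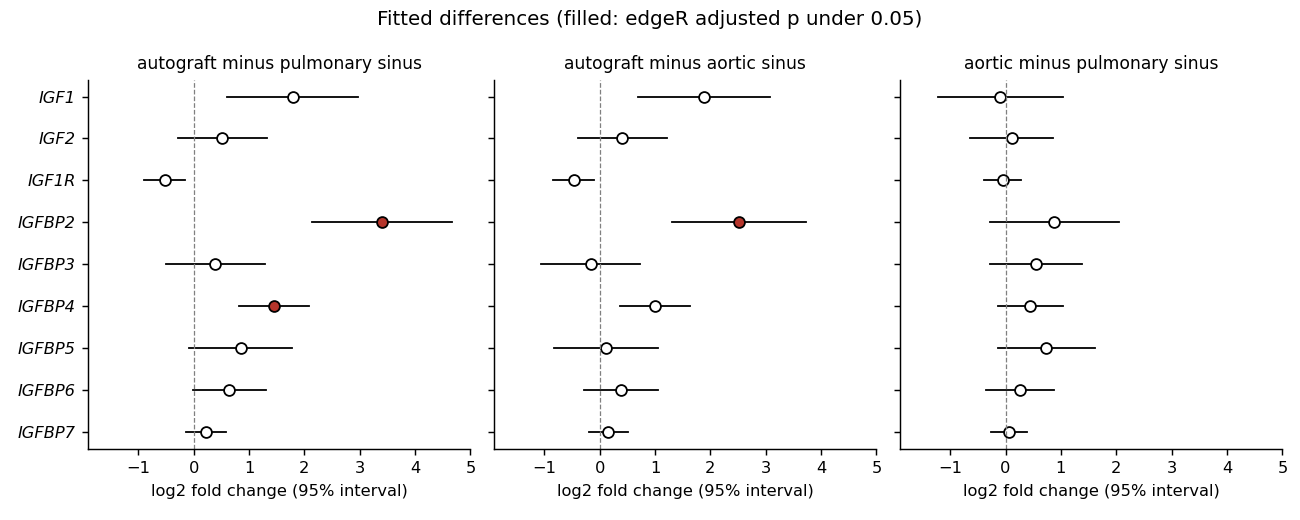
Log2 fold change of each of the 9 IGF genes for autograft minus pulmonary sinus, autograft minus aortic sinus and aortic minus pulmonary sinus; points are edgeR estimates, bars are 95% intervals, and filled points passed the adjusted threshold of 0.05. IGFBP2 was 3.40 above pulmonary and 2.52 above aortic sinus, IGFBP4 was 1.45 above pulmonary sinus, and no gene passed between the native tissues.

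Per transcript length, in the FPKM of run 2, IGFBP7 was the most abundant of the 9 genes and IGF1 the least in all 11 libraries. The mean deposited FPKM of IGFBP7 was 1644 ± 185 in autograft sinus (SD, n = 3), 1635 ± 553 in aortic sinus and 1509 ± 260 in pulmonary sinus (SD, n = 4 each). IGFBP6 came after IGFBP7 in the order of means of each group. IGFBP6 averaged 652 ± 163 FPKM in autograft sinus, 412 ± 64.6 FPKM in aortic sinus and 329 ± 158 FPKM in pulmonary sinus. IGFBP4 came next, at 502 ± 121 FPKM in autograft sinus, 195 ± 21.9 FPKM in aortic sinus and 155 ± 69.3 FPKM in pulmonary sinus. The order of IGFBP6 over IGFBP4 held in 2 of 3 autografts and in all 8 native libraries, and their autograft levels overlapped.

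The lower part of the order also had neighbours that did not differ beyond their spread. In autograft sinus, IGFBP5 (92.1 ± 7.33 FPKM), IGFBP3 (80.8 ± 12.0 FPKM), IGFBP2 (52.3 ± 46.8 FPKM) and IGF2 (31.8 ± 14.5 FPKM) each overlapped the next. IGF1R followed at 5.50 ± 0.581 FPKM and IGF1 at 0.971 ± 0.101 FPKM, both without overlap with the gene above. By group mean, IGFBP2 stood beside IGF1R in native tissue. In aortic sinus IGFBP2 averaged 7.29 ± 3.01 FPKM and IGF1R 6.84 ± 1.49 FPKM. In pulmonary sinus IGFBP2 averaged 3.97 ± 2.86 FPKM and IGF1R 7.61 ± 0.667 FPKM. By library, IGFBP2 exceeded IGF2 only in autograft replicate 1. In autograft replicates 2 and 3 IGFBP2 came directly above IGF1R (27.4 over 4.87 FPKM and 23.2 over 6.02 FPKM). Aortic replicates 1 and 4 and pulmonary replicate 1 had IGFBP2 in that same place. Of the summed FPKM of the 6 binding proteins, IGFBP2 made up 0.833% to 3.03% in autograft sinus, 0.148% to 0.402% in aortic sinus and 0.0627% to 0.357% in pulmonary sinus. IGFBP4 made up 12.98% to 20.8% in autograft sinus, 6.52% to 10.5% in aortic sinus and 3.61% to 11.1% in pulmonary sinus. IGFBP7 made up 51.7% to 60.1% in autograft sinus, 60.6% to 75.2% in aortic sinus and 56.8% to 84.6% in pulmonary sinus. The shares of IGFBP2 and IGFBP4 were higher in every autograft library than in any native library. No deposited FPKM was 0, even where the raw count was, so these values do not follow from the counts by length and depth alone. They serve here for order within a library, and for means, ratios and shares set side by side between groups, which carry that limit. The FPKM and CPM values are not interchangeable.

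**Figure D3:**
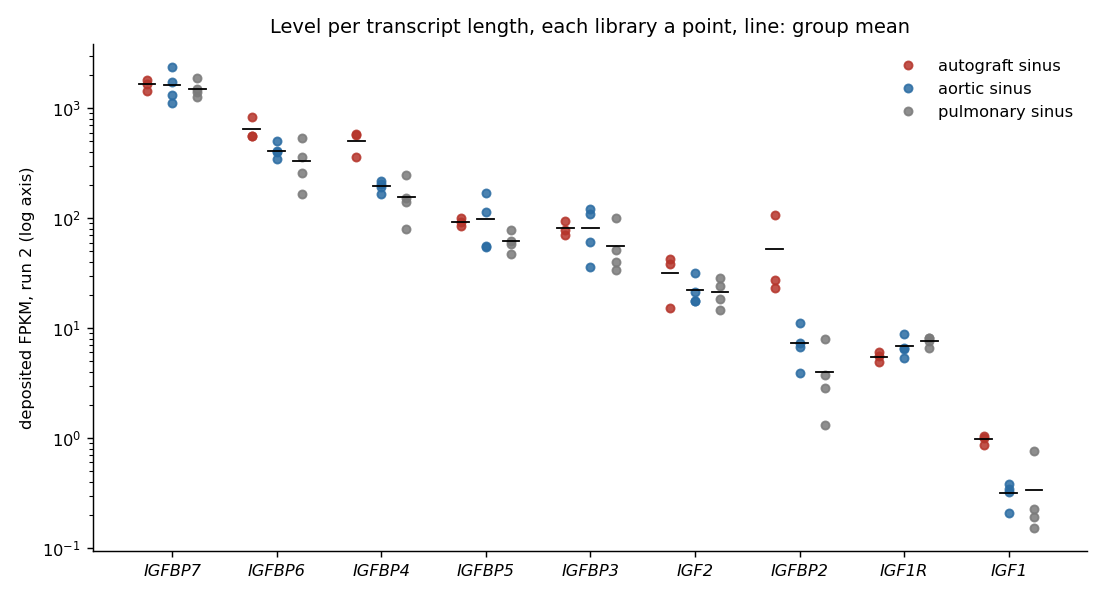
Level per transcript length of the 9 IGF genes in each library, as deposited FPKM of run 2 on a log axis; points are libraries, short lines are group means, and groups run from autograft to aortic to pulmonary sinus within each gene. IGFBP7 is highest and IGF1 lowest in all 11 libraries. The group mean of IGFBP2 lies among the middle genes in autograft sinus and near that of IGF1R in native tissue. IGFBP2 exceeds IGF2 only in autograft replicate 1.

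Markers of other cell types moved with the groups, and they were measured in the same libraries. In wall tissue sequenced in bulk, fewer cells of a type and less RNA per cell cannot be told apart. The summed level of the fibroblast and adventitia list (10 of 10 markers in the tables) was 21304 to 30841 CPM in autograft sinus, 10222 to 11790.1 CPM in aortic sinus and 5730.2 to 14510.4 CPM in pulmonary sinus. The smooth muscle list (9 of 10) summed to 25369 to 49521 CPM in autograft sinus, 51801.5 to 72622 CPM in aortic sinus and 54064 to 87989 CPM in pulmonary sinus. The autografts did not overlap the native libraries in either sum, in opposite directions.

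The list for T and natural killer cells (9 of 10) summed to 48.6 to 67.0 CPM in autograft sinus, 6.19 to 14.0 CPM in aortic sinus and 2.80 to 9.89 CPM in pulmonary sinus, also without overlap. Macrophage markers (9 of 10) summed to 191 to 1122 CPM in autograft sinus, 133 to 380.4 CPM in aortic sinus and 68.1 to 299.9 CPM in pulmonary sinus. B and plasma cell markers (6 of 6) summed to 15.9 to 62.0 CPM in autograft sinus, 7.66 to 9.08 CPM in aortic sinus and 5.31 to 8.59 CPM in pulmonary sinus, and 2 of them were at 0 in all pulmonary libraries. The autografts were above every native library for T and natural killer cells and for B and plasma cells, and overlapped them for macrophages.

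Endothelial markers (9 of 10) summed to 139 to 1670.0 CPM in autograft sinus, 257 to 627 CPM in aortic sinus and 137 to 434 CPM in pulmonary sinus. Adipocyte markers (6 of 6) summed to 40.9 to 915 CPM in autograft sinus, 24.7 to 444 CPM in aortic sinus and 13.1 to 229.6 CPM in pulmonary sinus. Cardiac muscle markers (7 of 8) summed to 399 to 1321 CPM in autograft sinus, 275 to 2724 CPM in aortic sinus and 547 to 2271 CPM in pulmonary sinus, with 1 marker at 0 in all pulmonary libraries. Autograft replicate 1 was the lowest autograft for each of these sums. Schwann cell and nerve markers (6 of 6) summed to 59.1 to 90.9 CPM in autograft sinus, 69.8 to 243 CPM in aortic sinus and 76.8 to 106 CPM in pulmonary sinus. All 4 of these lists overlapped between the groups. Markers listed in the tables were above 0 in at least 1 library of every group other than the 3 just given.

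Autograft replicate 1 and pulmonary replicate 1 were at the ends of their groups for some IGF genes and some marker sums. Autograft replicate 1, with 60.6 CPM of IGFBP2 and 30.4 CPM of IGF2, had the lowest smooth muscle sum (25369 CPM), the highest fibroblast sum (30841 CPM) and the highest macrophage sum (1122 CPM) of the 11 libraries. Pulmonary replicate 1 was the highest pulmonary library for 6 of the 9 genes (IGF1, IGFBP2, IGFBP3, IGFBP4, IGFBP5 and IGFBP6), and the lowest for IGF1R. Among pulmonary libraries it also had the highest sums of fibroblast (14510.4 CPM), endothelial (434 CPM), macrophage (299.9 CPM), T and natural killer cell (9.89 CPM) and adipocyte markers (229.6 CPM). IGFBP4 was highest in autograft replicate 2 (272 CPM), which had the lowest fibroblast sum of the autografts (21304 CPM). That library also had the highest endothelial (1670.0 CPM), adipocyte (915 CPM) and B and plasma cell (62.0 CPM) sums of the 11 libraries. IGFBP5 in autograft replicate 1 was the lowest of the autografts (746 CPM), and in pulmonary replicate 1 the highest of the pulmonary libraries (732 CPM). The part of these cell types in the IGF differences was not tested.

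Other genes of the IGF pathway came from a list of 65 symbols, of which 63 were in the tables and 57 were tested. Against pulmonary sinus 4 of the 57 rose and 6 fell in the autograft, beside 11.3% of all genes called in either direction, and the median log2 fold change was -0.0593. Against aortic sinus 2 rose and 1 fell, beside 2.38% of all genes, with a median of -0.084. Between the native tissues none of the 57 passed, and over all genes tested none did either. The highest raw count of the genes left untested was 6 in any library, for INSRR and IGF2BP3. IGFBP1, IGFBPL1, IRS4 and IGF2BP1 had 0 counts in all 11 libraries. This allows at most 0.145 to 0.173 CPM per library (3 counts, counting error only), here on library totals without TMM.

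Among the proteases that cut binding proteins and their inhibitors, 1 of 8 rose in each autograft comparison and none fell. Over all genes tested, 6.05% rose against pulmonary sinus and 0.948% against aortic sinus. The called gene of this list was ADAM12, a protease known from human studies to cut IGFBP3 and IGFBP5. ADAM12 had 30.0, 18.0 and 10.2 CPM in autograft sinus, against 2.23, 3.80, 2.296 and 3.71 CPM in aortic sinus and 2.77, 1.20, 0.609 and 3.20 CPM in pulmonary sinus. The lowest autograft was above all native libraries. ADAM12 rose by 3.32 ± 0.53 on the log2 scale against pulmonary sinus (edgeR adjusted p = 0.00914), a call kept in all 11 fits that left out a library, and by 2.69 ± 0.51 against aortic sinus (edgeR adjusted p = 0.0320). The aortic call was lost without autograft replicate 1 or 2, or any of aortic replicates 1 to 4, where the edgeR adjusted p was 0.0548 to 0.0957.

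IGFALS, the acid-labile subunit that binds IGF with IGFBP3 or IGFBP5 in a ternary complex in serum, was the single tested gene of its list and fell in both comparisons. It had 3.37, 3.26 and 4.37 CPM in autograft sinus, against 7.51, 10.7, 5.62 and 8.49 CPM in aortic sinus and 10.4, 10.2, 8.43 and 6.97 CPM in pulmonary sinus. Every autograft library was below every native library. IGFALS fell by 1.29 ± 0.26 on the log2 scale against pulmonary sinus (edgeR adjusted p = 0.0154) and lost that call without autograft replicate 2 (edgeR adjusted p = 0.0527). It fell by 1.14 ± 0.25 against aortic sinus (edgeR adjusted p = 0.0469), a call that held only without pulmonary replicate 1 among the 11 fits that left out a library (edgeR adjusted p of 0.0523 to 0.122 in the other ten), and the limma adjusted p with the animal as a random block was 0.0630.

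Of 9 receptor substrates and adaptors tested, IRS1 fell against pulmonary sinus and none rose, beside 5.29% of all genes lower and 6.05% higher. IRS1, the docking protein that links the IGF and insulin receptors to PI3K, had 17.5, 12.3 and 14.6 CPM in autograft sinus, against 19.8, 40.9, 26.0 and 23.5 CPM in aortic sinus and 37.2, 40.1, 41.4 and 26.5 CPM in pulmonary sinus. Every autograft library was below every native library. IRS1 fell by 1.29 ± 0.25 on the log2 scale against pulmonary sinus (edgeR adjusted p = 0.0149), and the call was lost without autograft replicate 2 (edgeR adjusted p = 0.0543).

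Of 21 genes of the PI3K, AKT, MTOR and FOXO list, 1 rose and 4 fell against pulmonary sinus, and 1 rose against aortic sinus. The shares over all genes were 6.05% higher and 5.29% lower against pulmonary sinus, and 0.948% higher against aortic sinus. PIK3R1, a regulatory subunit of PI3K, had 28.6, 21.6 and 29.5 CPM in autograft sinus, against 12.9, 13.6, 16.0 and 16.0 CPM in aortic sinus and 16.6, 12.96, 13.8 and 18.1 CPM in pulmonary sinus. All autografts were above all native libraries. PIK3R1 rose by 0.79 ± 0.16 on the log2 scale against pulmonary sinus (edgeR adjusted p = 0.0171) and by 0.86 ± 0.16 against aortic sinus (edgeR adjusted p = 0.0314). The pulmonary call was lost without pulmonary replicate 2 (0.0504) or 3 (0.0558), and the aortic call without any of autograft replicates 1 to 3 or aortic replicates 1 to 4, at an edgeR adjusted p of 0.0567 to 0.0859.

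The 4 genes that fell against pulmonary sinus did so by small amounts. MTOR, the growth kinase, fell by 0.39 ± 0.10 on the log2 scale (edgeR adjusted p = 0.0363), and its complex partner RPTOR fell by 0.49 ± 0.14 (edgeR adjusted p = 0.0440). TSC2, an inhibitor of that kinase complex, fell by 0.47 ± 0.13 (edgeR adjusted p = 0.0448), and FOXO4, a transcription factor held back by AKT, fell by 0.60 ± 0.14 (edgeR adjusted p = 0.0256). The calls of MTOR, RPTOR and TSC2 each held in 3 of the 11 fits that left out a library, and that of FOXO4 in 7. Without autograft replicate 1 or 2, or pulmonary replicate 2 or 3, none of the 4 was called. MTOR and RPTOR were also not called without pulmonary replicate 4 or aortic replicate 1 or 4, TSC2 without aortic replicate 1, 3 or 4, RPTOR without aortic replicate 3, and MTOR and TSC2 without autograft replicate 3. The edgeR adjusted p in those fits was 0.0503 to 0.119, and the limma adjusted p of TSC2 with the animal as a random block was 0.0502.

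In the growth hormone list, 1 of 7 genes rose against pulmonary sinus and none fell, beside 6.05% of all genes higher and 5.29% lower. That gene was JAK2, the kinase of the growth hormone receptor and of several cytokine receptors, with 81.6, 84.4 and 67.6 CPM in autograft sinus, against 31.7, 35.7, 48.0 and 50.7 CPM in aortic sinus and 49.0, 27.9, 37.7 and 51.5 CPM in pulmonary sinus. All autografts were above all native libraries, and JAK2 rose by 0.91 ± 0.22 on the log2 scale against pulmonary sinus (edgeR adjusted p = 0.0280). Its call was lost without autograft replicate 1 or 2 or pulmonary replicate 2 or 3 (edgeR adjusted p of 0.0610 to 0.0893).

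Of 8 imprinted growth genes tested, MEST rose against pulmonary sinus and none fell, beside 6.05% of all genes higher and 5.29% lower. MEST, an imprinted gene expressed from the paternal copy in mouse and human, had 36.96, 60.8 and 20.96 CPM in autograft sinus, against 29.1, 18.9, 12.3 and 26.8 CPM in aortic sinus and 20.3, 12.3, 8.34 and 19.4 CPM in pulmonary sinus. The autografts were above the pulmonary libraries by a narrow margin and overlapped the aortic ones. MEST rose by 1.39 ± 0.41 on the log2 scale against pulmonary sinus (edgeR adjusted p = 0.0493). The call held in 3 of the 11 fits that left out a library, those without autograft replicate 3, aortic replicate 3 or pulmonary replicate 1, and in the other eight the edgeR adjusted p was 0.0585 to 0.180. The limma adjusted p with the animal as a random block was 0.0553. Of the other receptors of the family (2 tested) and the IGF2 mRNA binding proteins (1 tested), none was called in any comparison.

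**Figure D4:**
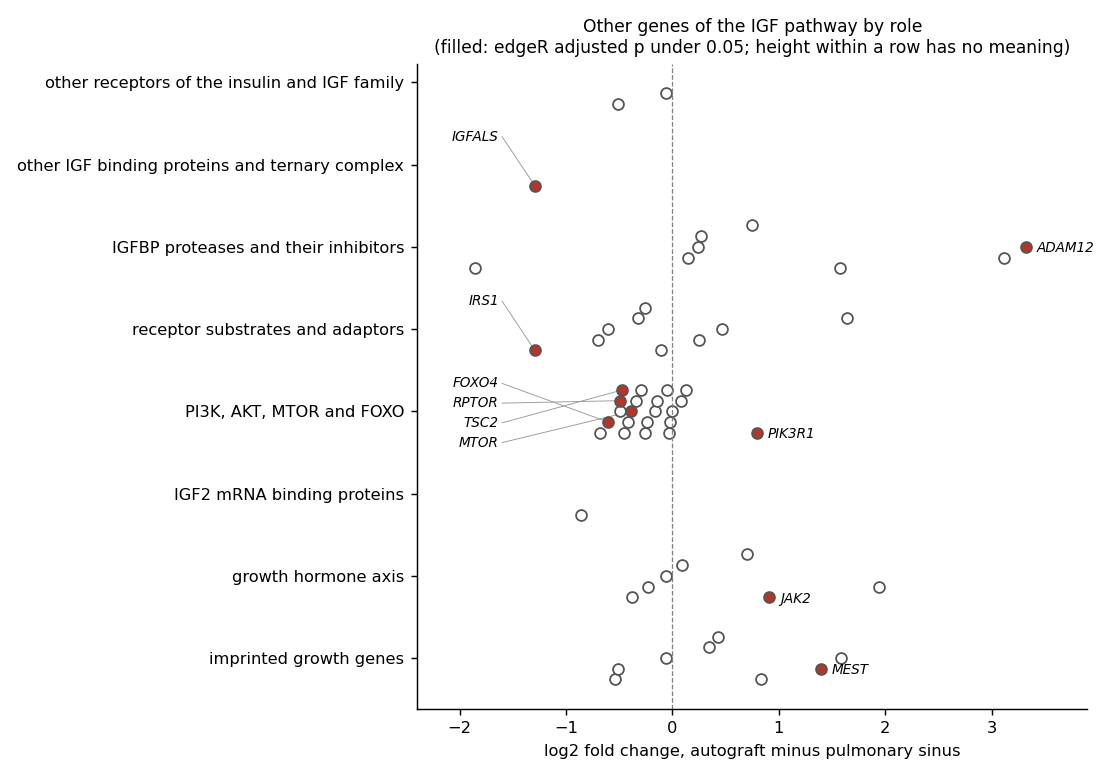
Log2 fold change of the 57 other IGF pathway genes tested, autograft minus pulmonary sinus, in rows by role; each point is a gene and filled, named points passed the edgeR adjusted threshold of 0.05. ADAM12 (3.32) is the highest called value, and IGFALS and IRS1 (both -1.29) are the lowest called values.

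The native tissues came from the same 4 animals, and were first compared as groups, without the animal in the fit. No gene of the 9 passed for aortic minus pulmonary sinus, all with an edgeR adjusted p of 1. With the animal as a fixed block in the native libraries, edgeR also called 0 of the 9 genes and 0 over all genes. Over all genes tested edgeR called 0%, 306 genes had an unadjusted p under 0.05, and DESeq2 and limma-voom also called none. The groups overlapped for all 9 genes, against 1.42% of all genes without overlap (0.714% higher and 0.701% lower in aortic sinus). The widest fold changes were 0.88 ± 0.53 for IGFBP2 (95% interval -0.28 to 2.04) and 0.74 ± 0.40 for IGFBP5 (95% interval -0.13 to 1.61) on the log2 scale.

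By the animal labels, the differences within animals pointed both ways. The values of D3 and D4 rest on those labels and would change if the labels of 1 tissue were exchanged. On the log2 scale, aortic minus pulmonary IGFBP4 was -0.33 in D3, 1.48 in D4, 0.46 in D5 and 0.52 in D6. IGFBP3 was -1.42, 1.79, 0.56 and 1.04 in the same animals, and IGF1 was -1.87, 1.03, 0.82 and 0.85. For each of these genes 3 of 4 animals had the higher level in aortic sinus, with the animal labelled D3 the other way. IGFBP2 was 0.11, -0.14, 1.15 and 2.77, so its difference came from D5 and D6.

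**Figure D5:**
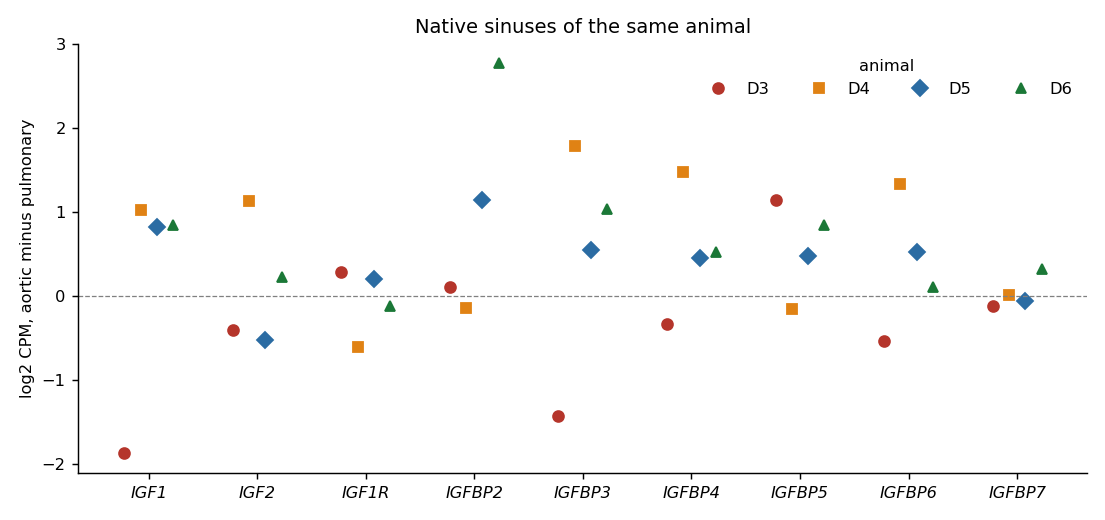
Difference between the native tissues of the same animal for each of the 9 IGF genes, as log2 CPM of aortic minus pulmonary sinus; each symbol is an animal (D3 to D6) and the dashed line marks no difference. For IGF1 the point of D3 lies at -1.87 while those of the other animals lie above 0, and for IGFBP2 D6 lies highest at 2.77.

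The genes with the pattern most like those of the called members across the 11 libraries were listed by Pearson's r of log2 CPM among 10929 genes with a mean of at least 5 CPM, as a description that includes the difference between groups. For IGFBP2 they were IL15RA (r = 0.949), TMEM181 (0.949) and NUAK1 (0.946). IL15RA averaged 16.7 ± 9.30 CPM in autograft sinus (SD, n = 3), 5.17 ± 1.09 CPM in aortic sinus and 3.61 ± 1.85 CPM in pulmonary sinus (SD, n = 4 each). NUAK1 averaged 26.8 ± 8.72 CPM in autograft sinus, 10.5 ± 0.998 CPM in aortic sinus and 7.16 ± 2.95 CPM in pulmonary sinus. For IGFBP4 they were FES (r = 0.978), PLSCR1 (0.976) and SEMA6A (0.974). PLSCR1 averaged 21.8 ± 5.33 CPM in autograft sinus, 7.09 ± 1.52 CPM in aortic sinus and 4.93 ± 3.098 CPM in pulmonary sinus. All 11 points of each r share the libraries and their scaling with the gene they are compared with.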

How the data were processed

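The 22 sample entries are 11 libraries in 2 runs each. Per the labels' protocols, TRIzol was used on the tissue for total RNA, and TruSeq libraries followed. featureCounts 1.5.3, STAR 2.5.2b, Bowtie2 2.3.3.1 and cutadapt appear in the submitters' processing notes without a role. No label or header names the genome build, annotation or strand setting. The deposited tables hold whole-number raw counts for 26200 symbols. The deposited FPKM values of the authors cover 15272 genes in run 1 and 15080 in run 2, and hold no 0, although 4505 raw counts of those genes are 0 in run 1 and 2216 in run 2. For genes whose values are whole multiples of a step (87.7% in run 1, 71.3% in run 2), the median multiple was the same in every library, 77 in run 1 and 110 in run 2. How the FPKM were derived is not stated. The FPKM served for order per length, for ratios, shares and means by group, and as an alternative unit. RefSeq names (assembly ARS-UI_Ramb_v3.0) matched all 9 genes, and no coordinates are given.

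Runs of a library were added, since the chi-square per gene between them was 1.38 to 1.51, while it was 30.1 to 105 between libraries of a group. The nameless row (0.000522% of counts or less) was left out. Genes were filtered by filterByExpr, scaled by TMM (factors 0.97 to 1.03) and tested in 1 edgeR quasi-likelihood fit of all 11 libraries with no block. Versions were DESeq2 1.42.0, limma 3.58.1 and edgeR 4.0.16 under R 4.3.3. A gene was called at a Benjamini-Hochberg adjusted p under 0.05 over 14979 genes. Each SE was the size of the log2 fold change over the square root of the F statistic of that fit. The 95% intervals were built from these SE values. Within a group, replicates are separate animals per the labels, but the native groups share animals D3 to D6. With no block, p-values of the main fit measure the spread within groups and treat the 11 libraries as independent. Alternatives were DESeq2, limma-voom, other scalings, no filter, either run, FPKM, groups fitted in pairs, each library left out, animal D3 left out, pulmonary 1 and autograft 1 left out together, and the animal as a block. The pairing of native libraries comes from the animal names in the labels. Their deviations from the group means correlated at -0.18 in D3, -0.13 in D4, 0.43 in D5 and 0.45 in D6. The random block was fitted with limma-voom (correlation 0.121), as autograft animals have no pair. Scripts were tested on simulated data. The named genes are all 9 members, every called gene of the pathway list (up to 6 per role), and the 3 nearest patterns of each called member. The members and lists were chosen with earlier results of these data known. Paralogs among binding proteins could share reads, which was not tested. Counts have no molecular identifiers, so limits cover counting error only.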

Additional observations from a re-analysis of the deposited data

Results flagged for a closer look

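In 18 sets of 4 native libraries (9 genes in 2 tissues), the highest or lowest library stood apart in 2, by a gap over range above Dixon's 95% critical value, and chance flags about 1 set in 20. IGF1 in pulmonary sinus had a highest library of 4.18 CPM (replicate 1, animal D3), with the next at 1.14 CPM, a gap of 0.897 of the range. IGFBP4 in aortic sinus had a highest library of 121 CPM (replicate 2, animal D4), with the next at 98.4 CPM, a gap of 0.906 of the range. Pulmonary replicate 1 also had the highest fibroblast, endothelial, macrophage and T cell marker sums of the pulmonary libraries, and the part of these in the IGF1 level was not tested.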

How the results depend on the processing

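Of 708 refits of the 27 values of the 9 genes, 24 changed sign, all where neither value was called, 19 lost a call and 29 gained one. The number of the 9 genes called against pulmonary sinus was 2, and was 4 with DESeq2, 1 with these 2 groups alone, and 5 without animal D3 and also 5 without pulmonary replicate 1 and autograft replicate 1 together. It was 1 to 5 with a library left out, lowest without autograft replicate 2 and highest without pulmonary replicate 1. Against aortic sinus it was 1, and was 3 with DESeq2, 2 with limma-voom, 2 with these 2 groups alone, and 0 with FPKM of run 2 at a pseudocount of 1 or 0.1 or at a mean of at least 1. It was 0 to 3 with a library left out, 3 without pulmonary replicate 1. Between native tissues it was 0 in all settings. With the animal as a random replicate block the counts were 3 against pulmonary, 1 against aortic and 0 between native tissues, and with a fixed replicate block of native libraries 0. The 1 gene against aortic sinus was then IGF1 (limma adjusted p = 0.0418), while IGFBP2 was not called (limma adjusted p = 0.0503). Over all genes, 1699 were called against pulmonary sinus (422 without autograft replicate 2, 2733 without pulmonary replicate 1, 425 with 2 groups, 3019 with DESeq2) and 356 against aortic sinus (30 to 574 with a library left out, 108 without animal D3, 1462 with DESeq2). The cause was not tested. IGF1 rests on few counts, and its FPKM with a mean of at least 1 gave no value.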

Other observations

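Within animals, the aortic minus pulmonary difference had opposite signs in D3 and D4 for 9 of the 9 IGF genes. The share of all genes with opposite signs was not counted. Over all genes, the deviations of the 2 tissues correlated at -0.18 in D3 and -0.13 in D4. The sign pattern is therefore not shown to be particular to the IGF genes. The differences were small for IGFBP7 (-0.11 in D3 and 0.009 in D4) and IGFBP2 (0.11 in D3 and -0.14 in D4). IGF2 was -0.40 in D3 and 1.13 in D4, IGFBP6 was -0.54 in D3 and 1.33 in D4, and IGF1R was 0.29 in D3 and -0.61 in D4, on the log2 scale. These signs rest on the animal labels of D3 and D4. The aortic library of D3 is the one whose treatment label is that of operated sheep.

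STC1, an inhibitor of the IGFBP4 protease PAPPA, was picked here after its values were seen. It was not called, and had 1.74, 77.8 and 179 CPM in autograft sinus, 6.60 to 31.9 CPM in aortic sinus and 1.31 to 30.8 CPM in pulmonary sinus.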
